A study of Mus musculus with 5 samples.

Results

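Interferon-induced genes were examined in knee joints of mice lacking both epiphycan (Epyc) and biglycan (Bgn), 2 small leucine-rich proteoglycans of cartilage, bone and other connective tissue, against wildtype joints. The genes were a list of 39, named for their known induction by interferons. The list was drawn up with earlier results of these data known. For 34 of the 39 the annotation gave at least 1 probe set of their own, out of 12393 genes represented in all, and each was read by the probe set with the highest mean signal across the 5 arrays. Isg15 and Tgtp1 were annotated only to probe sets shared with another gene, no probe set was assigned to Ddx58, Ifi44 or Xaf1, and these 5 genes were not analysed here.

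The double-null group had 3 pools and the wildtype group 2 pools. All mice were 3 month old males of a C57/Bl6:129 hybrid strain, and the labels name the double-null animals only as lacking both proteoglycans, without saying how the alleles were made or whether a pool came from 1 litter. Each Affymetrix array held RNA of whole tibio-femoral joints from 3 mice, 6 joints in all, so a replicate is a separate pool of animals and differences between single mice are not seen. The values came as 2 tables that belong to 2 platform records. Table A held double-null pool 3 and wildtype pool 2, and table B held double-null pools 1 and 2 and wildtype pool 1.

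Interferons are secreted signals that put cells into an antiviral state. Type I interferons act through the receptor chains Ifnar1 and Ifnar2 and the kinases Jak1 and Tyk2 to assemble a complex, with Stat2 and Irf9 among its parts, that binds interferon-stimulated response elements in promoters. Interferon gamma acts through its own receptor and at gamma-activated sites, and Irf1 extends that response. The induced genes encode RNA sensors, enzymes and membrane proteins that block viral replication, GTPases that attack vacuoles of intracellular microbes, and feedback inhibitors. In the joint, soluble biglycan is known as a ligand of Toll-like receptors on macrophages, and interferons restrain the formation of osteoclasts.

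The promoters of the genes carried the response element more often than promoters at large, a property that no array value entered. RefSeq promoter windows of the GRCm38.p6 build, running from 250 bases before to 50 bases after the start site, were matched for 28 of the 34 genes. The core of the response element, GAAA and GAAA parted by any 2 bases, searched on both strands, was found in 17 of the 28 genes (60.7%), against 1079 of 27025 genes (3.99%) in the whole promoter table. The letters TTCNNNGAA of a gamma-activated site were found in 10 of the 28 (35.7%), against 9.55% of all genes. In Bst2 and Ifitm3 a match of the first motif overlapped a match of the second. Stretches of 60 bases upstream of the start site are given for 5 genes whose signals are described below, 5′ to 3′ on the gene's own strand, with matches to the core on either strand in capitals.
Ifit1: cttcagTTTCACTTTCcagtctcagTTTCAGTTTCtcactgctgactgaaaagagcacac
Rsad2: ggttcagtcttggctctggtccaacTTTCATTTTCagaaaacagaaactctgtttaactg
Bst2: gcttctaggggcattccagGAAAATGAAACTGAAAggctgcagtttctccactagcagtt
Gbp2: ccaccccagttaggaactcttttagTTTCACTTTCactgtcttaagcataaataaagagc
Gbp3: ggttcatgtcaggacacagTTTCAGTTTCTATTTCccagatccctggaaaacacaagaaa
The stretches lie at chr19:34640779-34640838 (plus strand), chr12:26456538-26456597 (minus), chr8:71537562-71537621 (minus), chr3:142620579-142620638 (plus) and chr3:142559980-142560039 (plus), in the order printed. Ifit1 holds 2 separate matches, Gbp3 and Bst2 each hold 2 overlapping matches, and Rsad2 and Gbp2 hold 1. The windows of Irf7 and Ifi35, described below, did not hold the letters of this core.

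The arrays were checked first on the targeted genes. The 3 probe sets of Bgn read 7.05 to 224 in the double-null pools and 2003 to 4063 in the wildtype pools, and the probe set of Epyc read 1.29 to 10.8 in the double-null pools and 78.8 to 91.2 in the wildtype pools. Cartilage and bone markers (9 measured of 10 listed) were above the highest Bacillus control probe set on at least 1 array each. These 27 controls have no target in mouse RNA, and their highest signal per array was 27.5 to 63.5. Of the 34 interferon-induced genes, 28 read above the highest control on every array. The other 6 were Oas2, Mx1, Mx2, Bst2, Gbp3 and Cxcl10, and for Mx2 no array did so.

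No interferon-induced gene passed the test of double-null against wildtype joints. Differences were tested with limma on quantile normalised log2(signal + 32) values with the table as a term, over the 7436 genes whose mean passed the 40th percentile (a signal near 98.5), which included 22 of the 34. Called genes, with a Benjamini-Hochberg adjusted p under 0.05 over all genes tested, numbered 0 of the 22, against 9 of 7436 (0.121%) overall. At an unadjusted p under 0.05 the count was again 0 of the 22, against 6.17% of all genes tested, though it was 1 or 2 in 8 of the 14 alternative settings. The log2 fold changes of the 22, double-null over wildtype, ran from -0.41 to 0.25, and all of their 95% intervals lay inside -1 to 1, with the outermost bounds at -0.83 and 0.69. A difference beyond 1 on this log2(signal + 32) scale thus lay outside the interval of each of these 22 genes. Some smaller differences lay within it. The scale understates changes of dim genes, for which a 2-fold change of signal comes to less than 1. In 2 against 3 pools an exact permutation test of a single gene cannot go below p = 0.1.

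**Figure D1:**
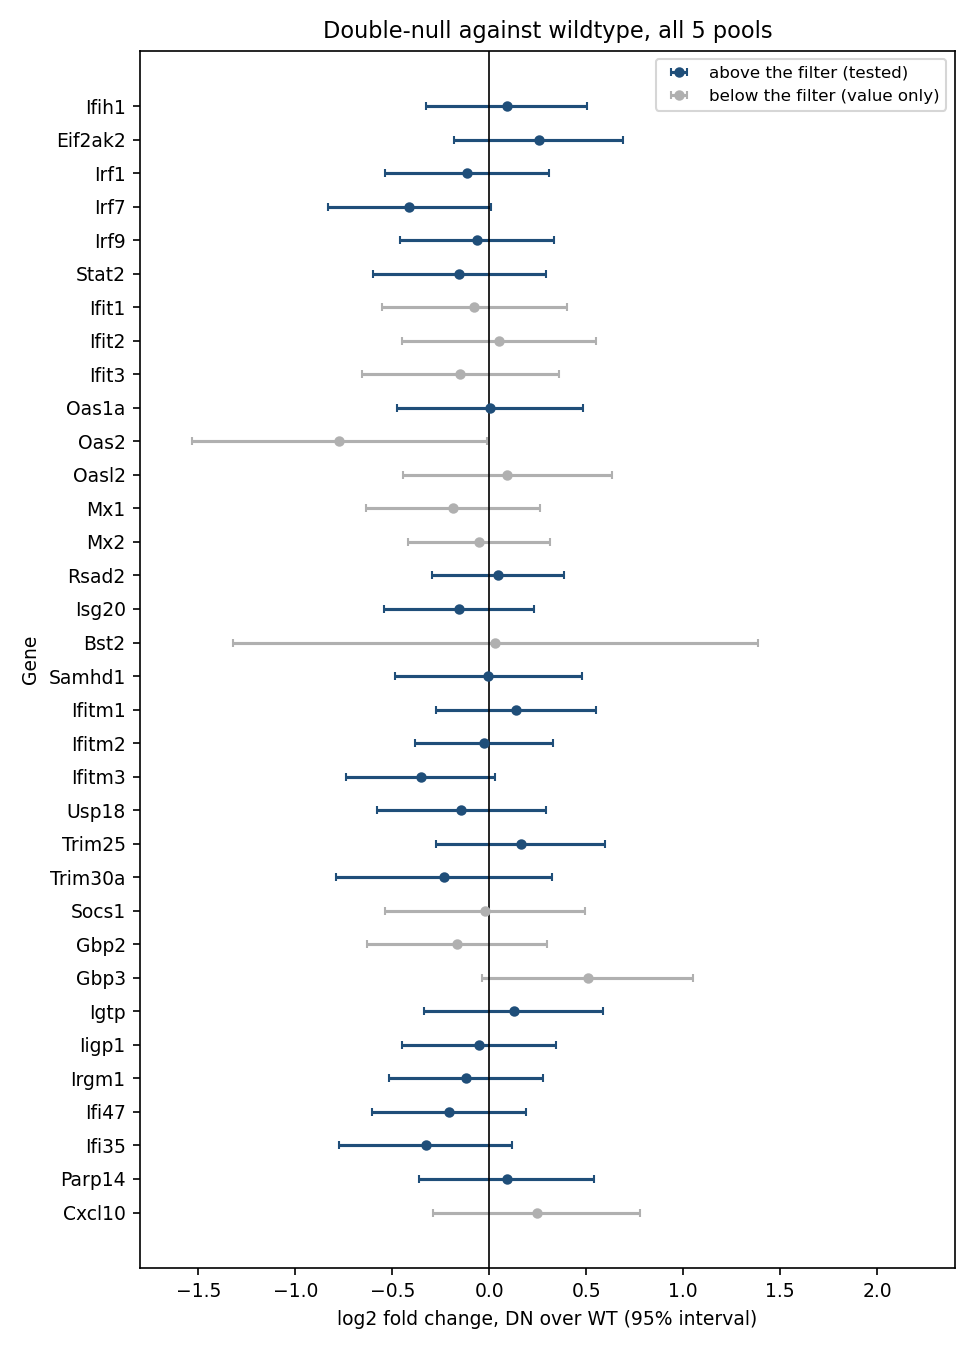
Log2 fold change of each interferon-induced gene, double-null (DN) over wildtype (WT), with its 95% interval from limma over 3 DN and 2 WT pools (x axis), genes down the page by role. Blue points passed the intensity filter and were tested, grey points did not and are values only; the 22 blue points lie between -0.41 and 0.25 with intervals inside -1 to 1.

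Over all 34 genes, 21 had negative and 13 had positive log2 fold changes, and the median was -0.05, beside -0.01 over all 12393 genes. That is 61.8% negative, against 52.5% of all genes. Groups were fully apart on the normalised scale in 7 of the 34. In 6 of them (17.6%) every double-null pool lay below both wildtype pools, against 10.8% of all 12393 genes, and in 1 (2.94%) above, against 8.92%. Mx1, among those below, and Gbp3, the gene above, did not pass the highest control on every array. The shares stand beside that background as a description. Within table A 20 of 34 were lower in the double-null pool, and within table B also 20 of 34, yet 10 were lower in both tables, 4 were higher in both, and 20 had opposite signs. These are 29.4%, 11.8% and 58.8%, beside 26.5%, 21.9% and 51.6% of all 12393 genes, so opposite signs were common in the whole array too. The medians were -0.03 in table A and -0.08 in table B, against -0.02 and -0.01 over all genes.

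**Figure D2:**
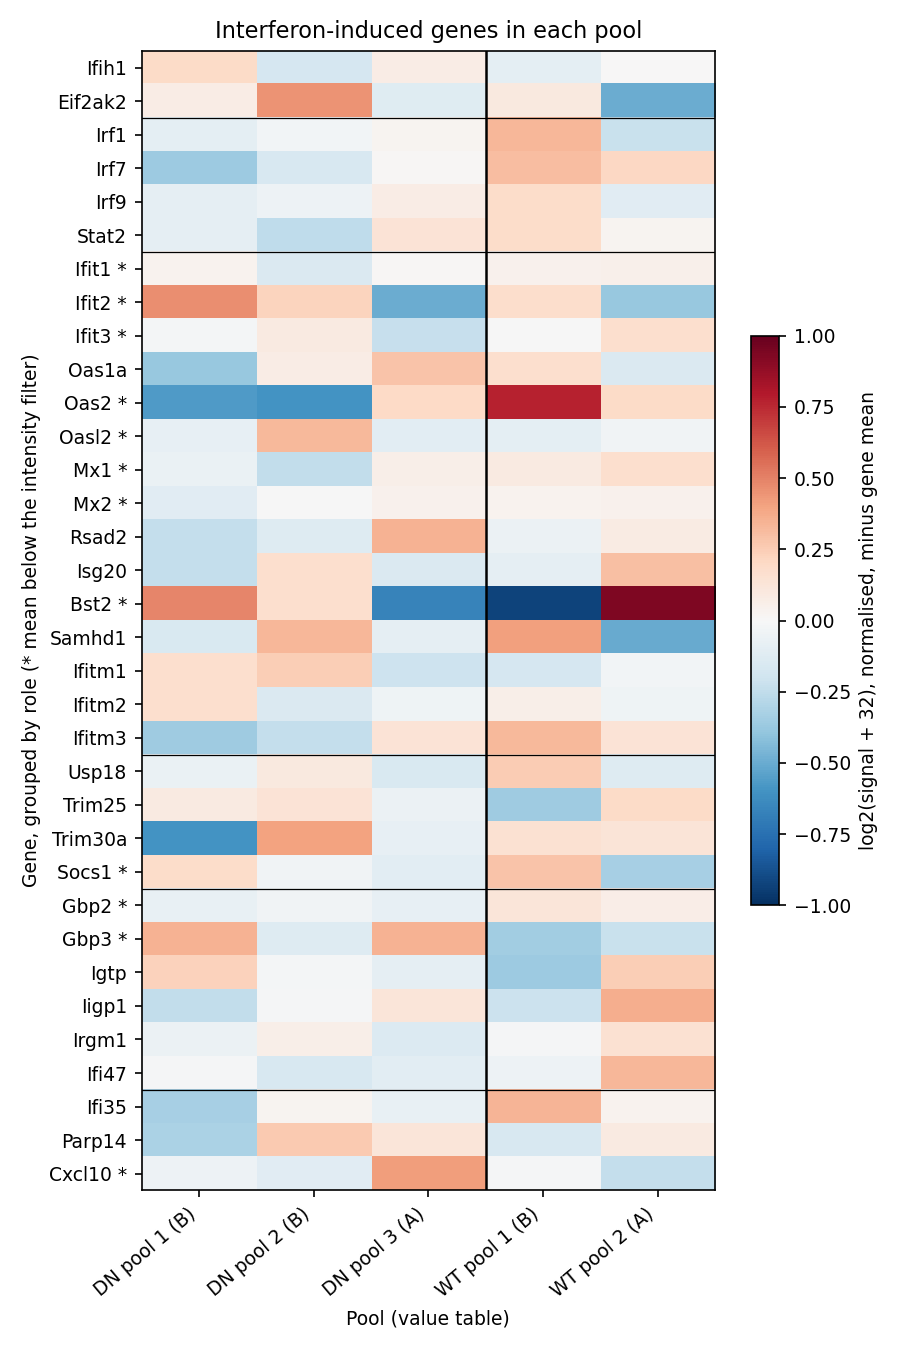
Normalised log2(signal + 32) of each of the 34 genes in each pool, minus the mean of the gene over the 5 pools, with the 3 DN pools left of the 2 WT pools and the table in brackets. Red is above and blue below the gene's mean; an asterisk marks the 12 genes below the intensity filter, and no role shows a uniform colour on either side of the line.

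Sensors of viral RNA did not pass. Ifih1, the gene of the cytoplasmic sensor MDA5, read 193, 149 and 188 in double-null pools 1 to 3, against 164 and 178 in wildtype pools 1 and 2. The groups overlapped, and the log2 fold change was 0.09. Eif2ak2, the gene of the kinase PKR that halts translation on binding double-stranded RNA, read 150, 216 and 141 in the double-null pools, against 167 and 99.6 in the wildtype pools. Its wildtype pools spread more than the groups differed (log2 fold change 0.25 ± 0.20 SE, limma adjusted p = 0.94), and its second probe set was at 0.07.

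Transcription factors of the response all had negative values, and none passed. Irf7, the factor that drives production of interferon alpha, had the smallest p of the 22 genes tested. It read 106, 138 and 165 in double-null pools 1 to 3, against 207 and 194 in wildtype pools 1 and 2, so every double-null pool was lower. Its log2 fold change was -0.41 ± 0.19 (SE, 95% interval -0.83 to 0.0073), with limma unadjusted p = 0.053 and adjusted p = 0.82. The difference was -0.20 within table A and -0.57 within table B. Irf1, induced by interferon gamma, read 504, 521 and 542 in the double-null pools, between 676 and 456 in the wildtype pools. Stat2 read 106, 101 and 146 in double-null pools, against 151 and 132 in wildtype pools, and its second probe set was at -0.03. Irf9, the DNA-binding partner of Stat2, read 226, 240 and 271 in double-null pools, against 292 and 235 in wildtype pools. Irf1, Irf9 and Stat2 were each higher in the double-null pool of table A (0.25, 0.19 and 0.11) and lower in those of table B (-0.39, -0.25 and -0.36), so the negative log2 fold changes of these 3 (-0.12, -0.06 and -0.16) rest on table B. The summed signal of 5 cartilage markers also set wildtype pool 1 of table B apart, at 7085, 6756 and 7829 in double-null pools, against 13370 and 5933 in wildtype pools 1 and 2, with a median difference of 0.15 in table A and -0.54 in table B. Its part in the values of these factors was not tested.

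The Ifit family, whose proteins bind viral RNA ends and block its translation, gave dim signals. Ifit1 read 66.3, 64.5 and 77.7 in double-null pools, against 79.8 and 78.9 in wildtype pools. Every double-null pool was lower, but the log2 fold change was -0.08, within an interval of -0.55 to 0.40. Its neighbour Ifit2 read 95.8, 84.4 and 40.7 in double-null pools, against 83.8 and 45.1 in wildtype pools. Both low values belong to table A and the high ones to table B, whatever the genotype. Ifit3 read 77.5, 96.4 and 74.0 in double-null pools and 92.1 and 106 in wildtype pools, with overlapping groups. All 3 means lay below the intensity filter, so they were not tested.

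Oligoadenylate synthetase genes, whose enzymes make the messenger that activates RNase L, did not move together. Oas2 read 35.2, 40.6 and 96.5 in double-null pools 1 to 3, against 157 and 94.2 in wildtype pools 1 and 2. Double-null pools 1 and 2 were thus far below the wildtype pool of their own table, at -1.36 on the log2 scale, while the difference in table A was 0.0043. The fit over both tables gave -0.77 for Oas2, as a value only since its mean lay below the filter. Without the filter, limma gave Oas2 an adjusted p of 0.85 over 12393 genes and an unadjusted p of 0.048, the lowest of the 34 genes in that fit. The signal of 40.6 in double-null pool 2 lay below the highest control of that array, 63.5, and the 35.2 of double-null pool 1 lay just above its own, 31.4. Oas1a, its neighbour on the chromosome, read 214, 314 and 372 in double-null pools, against 339 and 269 in wildtype pools (log2 fold change 0.0034). Oasl2, a related synthetase-like gene, read 53.1, 92.4 and 63.1 in double-null pools, against 63.3 and 66.2 in wildtype pools (0.09).

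Rsad2, the gene of viperin, an enzyme that makes a chain-terminating nucleotide, had 3 probe sets whose log2 fold changes differed in size and sign. On the brightest it read 2462, 2627 and 3535 in double-null pools, against 2843 and 2957 in wildtype pools, a log2 fold change of 0.04. On another it read 529, 516 and 1339 in double-null pools, against 905 and 1289 in wildtype pools, at -0.41. The dimmest read 341, 255 and 899 in double-null pools, against 576 and 799 in wildtype pools, at -0.43. On all 3 probe sets double-null pools 1 and 2 were the lowest of the 5 and double-null pool 3 was the highest. In the order given, the probe sets were at -0.12, -0.77 and -0.88 against the wildtype pool of table B. Against the wildtype pool of table A they were at 0.27, 0.09 and 0.17. As in Oas2, the lower signals were those of double-null pools 1 and 2 alone. The summed signal of 4 skeletal muscle markers was 21321, 16257 and 38890 in double-null pools, against 31621 and 30448 in wildtype pools. As on the 3 Rsad2 probe sets, it was lowest in double-null pools 1 and 2 and highest in double-null pool 3. Oas2 was instead highest in wildtype pool 1. The part of muscle content in the Oas2 and Rsad2 values was not tested.

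**Figure D3:**
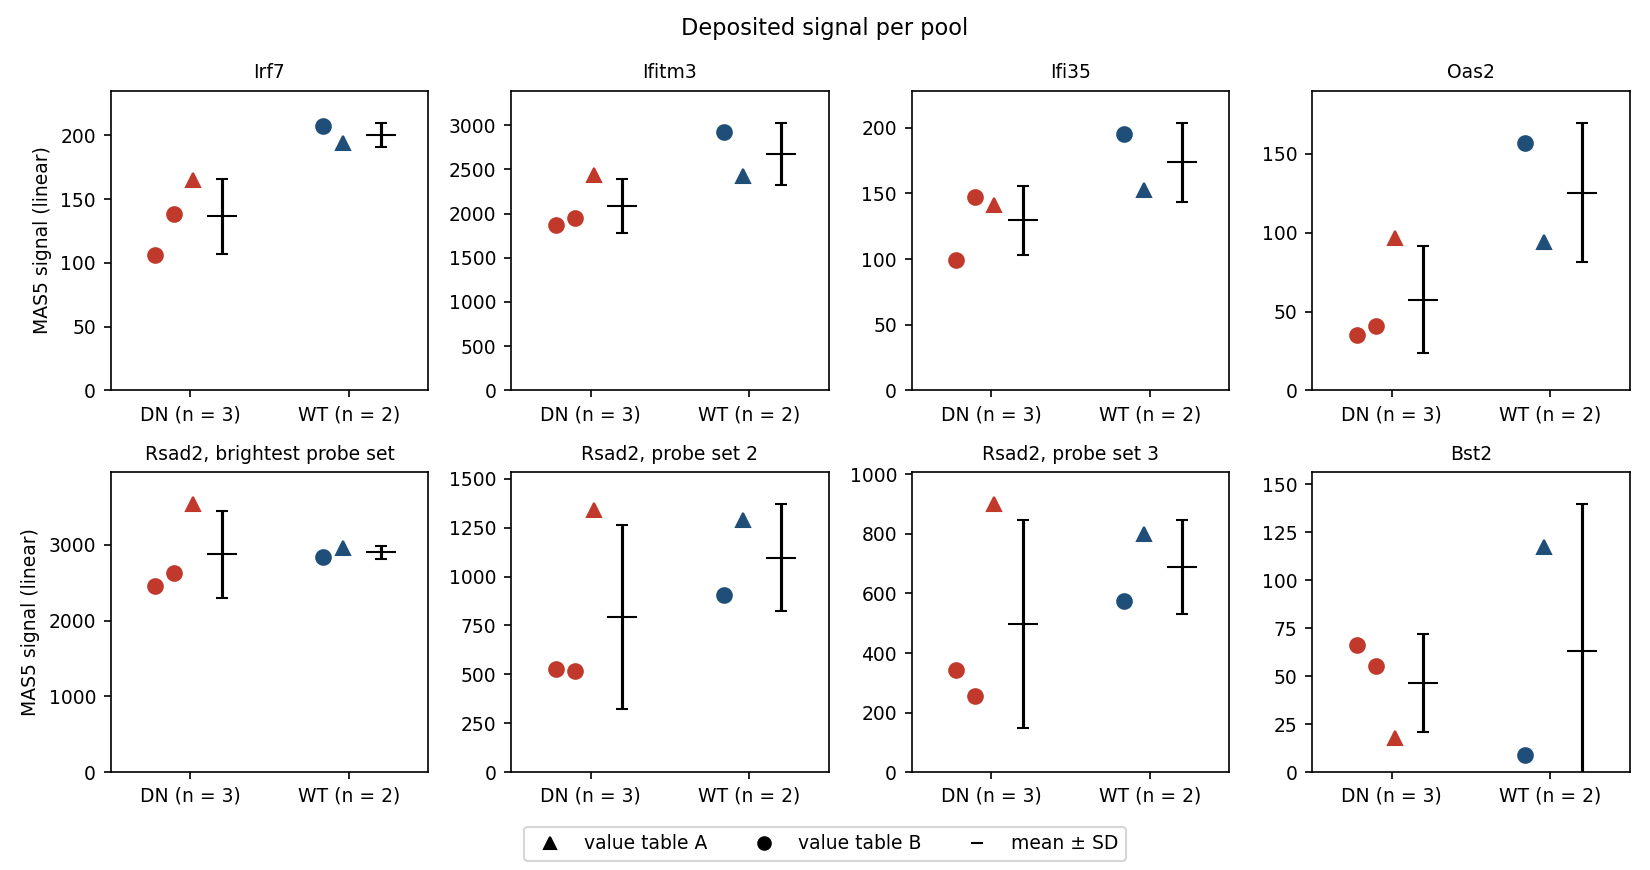
Deposited MAS5 signal (y axes, linear, from 0) per pool for Irf7, Ifitm3, Ifi35, Oas2, the 3 probe sets of Rsad2, and Bst2, with DN pools left of WT pools. Triangles are table A, circles table B, and bars the mean ± SD. For Oas2 and the Rsad2 probe sets the DN circles sit low, less so on the brightest of Rsad2. The DN triangle sits beside or above the WT triangle in these panels.

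The other antiviral effectors that were tested did not pass. Isg20, the gene of an exonuclease that degrades viral RNA, read 2598, 3432 and 2687 in double-null pools, against 2920 and 3444 in wildtype pools (-0.16 ± 0.18 SE, limma adjusted p = 0.99). Samhd1, which depletes nucleotides needed for reverse transcription, averaged 588 ± 117 in double-null pools (SD, n = 3) and 576 ± 258 in wildtype pools (n = 2). Its 4 probe sets gave log2 fold changes from -0.33 to -0.0067, but they disagreed within the tables. In table A the brightest was at 0.41 and the others at -0.84, -0.81 and 0.00018. In table B the brightest was at -0.32 and the others, in the same order, at 0.15, 0.04 and -0.02. Mx1 and Mx2, neighbouring genes of dynamin-like GTPases that trap viral nucleocapsids, averaged 36.5 ± 8.99 (Mx1) and 14.5 ± 4.38 (Mx2) in double-null pools, against 49.5 ± 2.0 (Mx1) and 16.3 ± 0.54 (Mx2) in wildtype pools. The Mx1 groups did not overlap, at a log2 fold change of -0.19, while Mx2 stayed below the highest control on every array and gives no level. Bst2, the gene of the membrane tether tetherin, read 66.1, 55.2 and 17.8 in double-null pools, against 8.71 and 117 in wildtype pools. It was lower in the double-null pool of table A (-1.60) and higher in those of table B (1.26), with only 2 of 5 arrays above their highest control.

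The Ifitm genes encode membrane proteins that stop viruses from fusing with the cell, and their values differed among themselves. Ifitm3 read 1873, 1946 and 2433 in double-null pools 1 to 3, against 2924 and 2423 in wildtype pools 1 and 2. On the normalised scale every double-null pool was below both wildtype pools, although the deposited signals of double-null pool 3 and wildtype pool 2 were in the opposite order. The log2 fold change was -0.35 ± 0.17 (SE, limma adjusted p = 0.84), made up of -0.0047 in table A and -0.62 in table B. Ifitm2 averaged 2064 ± 271 in double-null and 2027 ± 105 in wildtype pools (-0.03), and Ifitm1 averaged 397 ± 65.9 in double-null and 349 ± 27.1 in wildtype pools (0.14). These 3 genes and Irf7 neighbour each other on chromosome 7, and Ifitm3 and Irf7 had the smallest p of the 22 genes tested while Ifitm1 and Ifitm2 did not follow them.

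Regulators of the response did not pass either. Usp18, the protease that removes ISG15 from proteins and damps receptor signalling, read 98.1, 124 and 104 in double-null pools, against 145 and 104 in wildtype pools (-0.14). Trim25, the ubiquitin ligase that activates the RNA sensor RIG-I, read 385, 404 and 351 in double-null pools, against 279 and 422 in wildtype pools. Its log2 fold change was 0.16 ± 0.20 SE (limma adjusted p = 0.99), and its other probe sets were at 0.25 and 0.18. Trim30a, on its brightest probe set, varied most in the double-null group, at 277, 592 and 418, against 496 and 490 in the wildtype pools (-0.23 ± 0.26 SE, limma adjusted p = 0.99). Its second probe set did not show that spread, at 220, 185 and 180 in double-null pools, against 220 and 171 in wildtype pools (-0.02). Socs1, the feedback inhibitor of Jak kinases, averaged 65.8 ± 3.66 in double-null and 69.0 ± 31.3 in wildtype pools (-0.02).

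GTPases induced by interferon gamma, which act on the vacuoles of intracellular microbes, held the gene with the highest positive value, Gbp3. Gbp3 read 83.1, 58.6 and 97.2 in double-null pools, against 47.4 and 53.5 in wildtype pools. Every double-null pool was higher, and the difference had 1 sign in both tables (0.57 in table A and 0.46 in table B). Its log2 fold change was 0.51, with an interval of -0.04 to 1.05, and its mean lay below the filter. The neighbouring Gbp2, whose promoter stretch is printed above beside that of Gbp3, had the opposite sign, with 58.6, 71.3 and 69.6 in double-null pools, against 85.4 and 79.5 in wildtype pools (-0.17). The second probe set of Gbp2 was at 0.04. Of the immunity-related GTPases, Igtp averaged 420 ± 54.9 in double-null and 397 ± 124 in wildtype pools (0.13), and Iigp1 averaged 254 ± 42.5 in double-null and 286 ± 88.9 in wildtype pools (-0.05). The second probe set of Iigp1 was at -0.08, with -0.81 in table A and 0.46 in table B. Irgm1 averaged 190 ± 15.0 in double-null and 214 ± 20.9 in wildtype pools (-0.12), and its neighbour Ifi47 averaged 431 ± 26.7 in double-null and 517 ± 105 in wildtype pools (-0.21 ± 0.18 SE, limma adjusted p = 0.96). All 4 of these were lower in the double-null pool of table A, from -0.44 for Ifi47 to -0.24 for Iigp1, and between -0.03 and 0.47 in table B.

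Among the remaining genes, Ifi35, which encodes a leucine zipper protein that modulates RNA sensing, read 99.4, 147 and 141 in double-null pools, against 195 and 152 in wildtype pools. Every double-null pool was lower, at a log2 fold change of -0.33 ± 0.20 (SE, limma adjusted p = 0.89), with -0.11 in table A and -0.49 in table B. Parp14, a mono-ADP-ribosyltransferase, averaged 205 ± 53.2 in double-null and 200 ± 29.0 in wildtype pools (0.09). Cxcl10, the chemokine that draws T cells, read 29.3, 32.3 and 62.6 in double-null pools, against 37.6 and 25.9 in wildtype pools. Of the 5 arrays, that of double-null pool 3 read above its highest control and the other 4 did not, so Cxcl10 was not measurable in those.

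**Figure D4:**
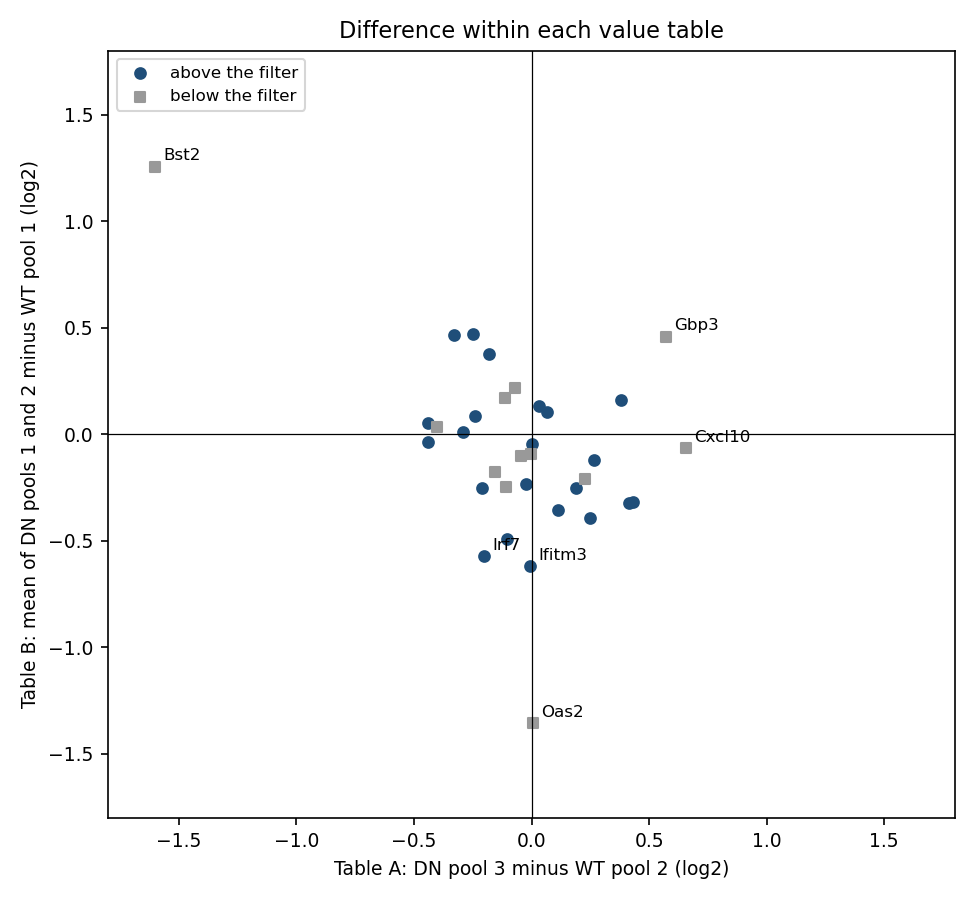
Difference in normalised log2(signal + 32) between DN and WT within table A (x axis, DN pool 3 minus WT pool 2) and table B (y axis, mean of DN pools 1 and 2 minus WT pool 1), 1 point per gene. Genes past 0.5 in either table are named; 20 of 34 points lie in the quadrants of opposite sign, with Bst2 at -1.60 and 1.26 the farthest out.

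The wider interferon pathway was read from a list of ligand, receptor, kinase, sensor and factor genes. The list also held the feedback inhibitor gene Socs3 and the RNA editing gene Adar, so it was not confined to steps upstream of the response. Of its 28 genes, 25 were measured and 17 passed the filter. The other 3 were not analysed here. None of the 17 was called (0.121% of all genes tested were). Negative values were found for 22 of the 25 (88%), against 52.5% of all genes, and the median was -0.13, beside -0.01 over all genes. Within table A 16 of the 25 (64%) were lower in the double-null pool, beside 52.6% of all genes. Within table B 20 (80%) were lower, beside 52%. The medians were -0.08 in table A and -0.20 in table B, against -0.02 and -0.01 over all genes. Groups were apart with every double-null pool lower in 8 of the 25 (32%), against 10.8% of all genes, and in 2 (8%) with every double-null pool higher, against 8.92%. The 8 include Ifng and Tlr7, which did not pass the highest control on every array. Of the 18 that did, 6 were lower and 1 higher in every double-null pool. Among all genes above the intensity filter, a different cut, these shares were 10.2% and 9.47%. These counts are a description and were not tested as a group. Ifnar2, a chain of the type I interferon receptor, read 363, 244 and 404 in double-null pools, against 593 and 406 in wildtype pools. Its log2 fold change was -0.52 ± 0.24 (SE, limma unadjusted p = 0.049, adjusted p = 0.80), with -0.92 in table B and 0.00068 in table A. A second probe set of Ifnar2 was at -0.21, with -0.22 in table B and -0.19 in table A.

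Irf3, the factor that starts interferon beta transcription, was lower in every double-null pool, at 639, 571 and 619, against 769 and 819 in wildtype pools. Its log2 fold change of -0.37 ± 0.17 SE missed the threshold (limma adjusted p = 0.82), and the tables were alike, at -0.38 in table A and -0.35 in table B. The other 3 probe sets of Irf3 were at -0.33, -0.29 and 0.20. Jak1 (-0.27), Mavs, the mitochondrial adaptor of the RNA sensors (-0.26), and Adar, which edits double-stranded RNA (-0.25), were likewise lower in every double-null pool and in both tables, each with a limma adjusted p of 0.89 to 0.91. The other probe sets of Jak1 were at -0.13 and -0.12, but that of Mavs was at 0.43, which put the mean over its probe sets at 0.084. The feedback inhibitor gene Socs3 was at 0.51 ± 0.23 SE (limma adjusted p = 0.81), with 0.04 in table A and 0.86 in table B, and its other probe sets were at 0.38 and -0.14. Of the interferon genes themselves, Ifnb1 averaged 35.4 ± 9.12 in double-null and 43.5 ± 17.4 in wildtype pools, and Ifng read at or below the highest control on every array.

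Cells that carry interferon responses were followed by marker genes, since in whole joints fewer cells of a type and less RNA per cell cannot be told apart. The summed signal of the B cell markers (4 measured of 5, all 4 negative) was 1701, 2069 and 2484 in double-null pools, against 2727 and 2571 in wildtype pools. It was thus lower in each double-null pool, but the median difference was -0.04 in table A and -0.45 in table B. Negative values were also found for 6 of 7 neutrophil, 5 of 7 T and NK cell, 3 of 5 macrophage and 2 of 3 plasmacytoid dendritic cell markers. The sums of 5 macrophage markers were 12581 to 17538 in double-null and 12597 to 18481 in wildtype pools, and those of 7 neutrophil markers 76538 to 108580 in double-null and 76779 to 123308 in wildtype pools. For 7 T and NK cell markers they were 683 to 907 in double-null and 902 to 1028 in wildtype pools, with Cd3e at or below the highest control on every array. For 3 measured plasmacytoid dendritic cell markers they were 1297 to 1482 in double-null and 1283 to 1387 in wildtype pools. Siglech, the other listed marker of these cells, was not measured. Irf8, 1 of the 3, is also on the pathway list and read 611 to 879 in double-null and 614 to 905 in wildtype pools. The part of these cells in the values of single genes was not tested.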

How the data were processed

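The deposited values were linear MAS5 signals, 1 intensity for each probe set, per the submitters' processing notes, which give no version and no scaling target here. Every array had a 2% trimmed mean of 250.1. Signals ran from 0.0423 to 26173, and precision is limited by having 5 arrays. RNA was labelled with biotin by in-vitro transcription, per the labels' protocols. Both tables held the same 22690 probe sets, of which 20393 had 1 gene symbol, 691 several and 1606 none. Symbols of 20364 were brought up to date by Entrez number from the GRCm38.p6 gene table, whose positions served only for which genes neighbour each other (within 1 Mb). Array control probe sets (64) were left out.

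Values were taken as log2(signal + 32), which understates changes of dim genes, and quantile normalised. Genotypes were compared with limma 3.58.1 under R 4.3.3 (intensity trend, two-sided, genotype and table as terms, 2 residual and 9.68 prior degrees of freedom). Genes below the filter took their fold change from the same fit without it. Means ± SD are of deposited signals. The members, lists and the rule for named genes were chosen with earlier results of these data known. The rule named every member, gave SE and adjusted p for the 8 with the smallest p, and named 6 genes of the pathway list. The fit was tested on simulated data: among 7436 genes, for the contrast of the genotypes, 95.6% of genes with a log2 change of 1 and 100% of genes with a log2 change of 2 were recovered, beside 13.9 false calls in each draw. The simulated noise was normal and independent between genes, so these rates check the code and are not the power on the measured arrays.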

Additional observations from a re-analysis of the deposited data

How the results depend on the processing

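Among the interferon-induced genes tested, 34 without the filter and 22 in each of the other 13 alternatives, limma called 0, and the lowest adjusted p in any was 0.42. At an unadjusted p under 0.05 the count was 2 on table B alone, with the replicate block and on dropping either array of table A, 1 in 4 alternatives (no filter, no table term, mean over probe sets, without double-null pool 2) and 0 in the other 6. The genes called over all genes tested were 5 with the deposited scaling, 2 without the filter, 4 without the table term, 2 on table B alone and 2 with the replicate block, against 9 as reported, and 2 to 54 without single pools. The highest, 54, came without double-null pool 2, and 20 came without double-null pool 1. The pathway list had 0 called throughout. The median of the 34 genes was -0.029 with median centring, -0.078 on table B alone and -0.085 with the replicate block, and -0.079 to -0.034 without single pools, against -0.053 as reported. Table A has 2 arrays, so dropping either of them (wildtype pool 2, double-null pool 3) leaves nearly the contrast of table B, and dropping wildtype pool 1 leaves that of table A.

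Signs turned in 62 of 476 single-gene values, spread over 23 of the 34 genes, none of them called. With the deposited scaling Oas1a was at -0.017, Bst2 at -0.00072 and Ifitm2 at 0.00025. With median centring Samhd1 was at 0.036 and Ifitm2 at 0.038. With the larger pseudocount Bst2 was at -0.036. Without the table term Oas1a was at -0.016, Rsad2 at -0.016, Bst2 at -0.0067, Samhd1 at 0.075 and Socs1 at 0.039. On table B alone Ifit3 was at 0.035, Oas1a at -0.32, Rsad2 at -0.12, Isg20 at 0.061, Iigp1 at 0.089, Irgm1 at 0.011 and Cxcl10 at -0.067. With the mean over probe sets Rsad2 was at -0.26 and Mavs at 0.084.

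The replicate block, in place of the table term, put Oas1a at -0.16, Rsad2 at -0.19, Samhd1 at 0.13, Ifitm2 at 0.0031 and Socs1 at 0.10. The numbers were not taken to pair the pools: deviations from the group means correlated at 0.0021 between the pools numbered 1 and at -0.18 between those numbered 2.

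Without single pools the values ran from -0.0033 to 0.17 for Ifih1, -0.40 to 0.25 for Irf1, -0.26 to 0.19 for Irf9, -0.36 to 0.11 for Stat2, -0.11 to 0.17 for Ifit2, -0.40 to 0.036 for Ifit3, -0.32 to 0.43 for Oas1a, -1.36 to 0.0043 for Oas2, -0.071 to 0.22 for Oasl2 and -0.13 to 0.26 for Rsad2. They ran from -0.44 to 0.058 for Isg20, -1.60 to 1.25 for Bst2, -0.33 to 0.42 for Samhd1, -0.18 to 0.38 for Ifitm1, -0.10 to 0.056 for Ifitm2, -0.25 to 0.47 for Trim25, -0.48 to 0.018 for Trim30a, -0.21 to 0.23 for Socs1 and -0.33 to 0.47 for Igtp. For Iigp1 they ran from -0.24 to 0.088, for Irgm1 from -0.29 to 0.010, for Parp14 from -0.062 to 0.22, for Cxcl10 from -0.067 to 0.65 and for Ifnar2 from -0.92 to 0.00067. The 11 genes whose sign did not turn ran from -0.24 to -0.023 for Usp18, -0.12 to -0.029 for Ifit1, -0.25 to -0.11 for Mx1, -0.092 to -0.00069 for Mx2, -0.58 to -0.20 for Irf7, -0.62 to -0.0053 for Ifitm3, -0.50 to -0.11 for Ifi35, -0.44 to -0.034 for Ifi47, -0.18 to -0.15 for Gbp2, 0.16 to 0.38 for Eif2ak2 and 0.39 to 0.64 for Gbp3. The values closest to 0 of Irf7, Ifitm3, Ifi35, Usp18, Mx1 and Mx2 came on dropping wildtype pool 1. The cause of these changes was not tested.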
